A study of Mus musculus with 6 samples.

Results

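The genes described here are those by which the liver makes, takes up, stores and exports cholesterol. A set of 35 genes was named by function, with earlier results of these data known. They run from the first committed step of the mevalonate pathway to the transporters that pass sterols into bile or onto lipoproteins. Of these, 32 had a probe set assigned to exactly 1 gene symbol and were measured, among 18194 genes in all. Acat2, Soat1 and Soat2 had none and were not analysed here, so esterification was covered by Lcat alone. They were sorted into 6 steps: 6 genes of SREBP regulation, 6 of the mevalonate arm, 11 of the sterol arm, 4 of uptake and intracellular transport, 1 of esterification and 4 of efflux. The mevalonate and sterol arms together are called the 17 synthesis enzymes below.

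Total RNA came from livers of CYP2D6-humanized mice, C57BL/6 animals that carry a human CYP2D6 transgene in all 3 groups. The livers were taken before pregnancy, at day 21 of it or at day 7 postpartum, each group with 2 biological replicates on 1 Affymetrix array apiece, 6 arrays in all. No source used here gives ages, litter sizes, feeding or collection time, and no group lacked the transgene, so its effect cannot be told apart. The replicates are labelled biological, with no word on how the animals were kept or sampled, and p-values measure the spread between these samples only. Whole liver was used, so fewer cells of a type and less RNA per cell cannot be told apart.

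Hepatocytes make cholesterol from acetyl-CoA through mevalonate, isoprenoids, squalene and lanosterol. The genes of this route are controlled by SREBP-2, a transcription factor held in the endoplasmic reticulum by SCAP and the INSIG proteins while sterols are plentiful, and released by a pair of Golgi proteases when they run low. Sterols in excess activate the liver X receptors, which favour export through ABC transporters to bile and to high-density lipoprotein.

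Each value below is the deposited log2 expression of 1 probe set, the brightest of its gene over the 6 arrays, so levels are compared between stages of a gene and never between genes. A difference is a difference of 2 stage means on the log2 scale, given with its standard error (SE, n = 2 arrays a stage). A gene is said to rise or fall where limma's moderated test, adjusted by Benjamini and Hochberg over all 18194 genes, gave a p below 0.05. All 32 measured genes had a mean above the median of the means of all genes (6.38). The 3 comparisons share arrays: a low value in pregnancy enters both the fall into pregnancy and the rise after it, so these are not independent observations.

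Before the results, the pregnant replicates have to be set side by side, because they stood apart in these genes. Over the 17 synthesis enzymes the median distance between the 2 arrays of a stage was 0.74 in pregnancy, 0.13 before it and 0.28 after it. Over all genes the same distances were 0.14, 0.12 and 0.12. Replicate 1 of pregnancy was the lower array in 15 of the 17 enzymes and the higher in 1. Mvd, Sqle and Msmo1 differed most between the pregnant arrays, by -2.30, -1.63 and -1.37 (replicate 1 minus replicate 2). Postpartum, replicate 1 was the higher array in 16 of 17, by a median of 0.28. For the cholesterol genes, calls that are lost without one of these arrays are given below with their value without it.

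**Figure D1:**
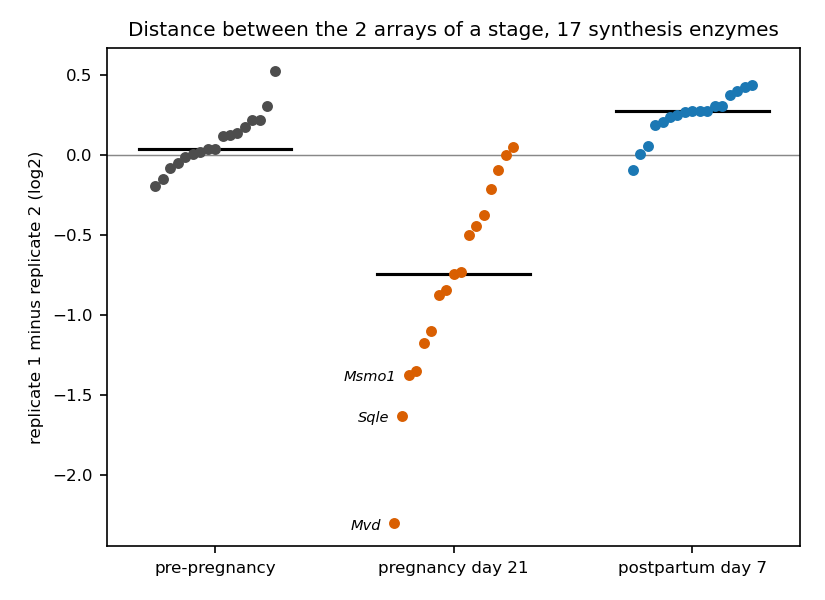
Distance between the 2 arrays of each stage (replicate 1 minus replicate 2, log2) for the 17 synthesis enzymes; each point is an enzyme, sorted by value within its stage, and the black bar is the median of these signed distances. Pregnancy spans the widest range, down to -2.30 for Mvd, while 16 of 17 postpartum points lie above 0.

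The synthesis route was lower in late pregnancy and higher after birth. In pregnancy against pre-pregnancy, 7 of the 17 synthesis enzymes fell and 0 rose, where 8.25% of all genes fell and 5.46% rose. Their median difference was -0.78, beside 0.045 over all genes, and 16 of 17 means were lower. In 13 of the 17, both pregnant arrays lay below both pre-pregnancy arrays, which held for 26.0% of all genes. In postpartum against pregnancy, 4 of the 17 rose and 0 fell, where 2.41% of all genes rose and 0.879% fell. Their median difference was 1.00, beside -0.01 over all genes. All 17 had both postpartum arrays above both pregnant arrays, which held for 25.1% of all genes. Pregnancy held the lowest of the 3 stage means in 16 of 17 enzymes, beside 31.1% of all genes, and the stage after birth held the highest in 14 of 17, beside 30.1%.

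Uptake, esterification and efflux gave smaller medians. Of those 9 genes 1 rose and 0 fell into pregnancy, 0 rose and 0 fell after it, and their median differences were 0.13 and -0.23. Over all 32 measured genes, 2 rose and 8 fell into pregnancy, and 5 rose and 0 fell after birth. Leaving out pregnancy replicate 1 brought the median of the synthesis enzymes to -0.41, with 14 of 17 below 0. Leaving out replicate 2 brought it to -1.18, with 16 below 0. For postpartum against pregnancy the medians were 0.69 and 1.55. The median kept its sign with either pregnant array alone and differed more than 1.5 times in size between them. How many enzymes were called also depended on which pregnant array was left out. Without postpartum replicates 1 and 2 the median after birth was 0.895 and 1.105. Fewer enzymes were called higher after birth without any 1 of the pre-pregnancy or postpartum arrays. Without pre-pregnancy replicate 1, 0 of the 17 were called lower, and without replicate 2, 1 was; over all genes the calls also dropped, from 2494 to 323 and 876. A trended and robust variance also ended the falls of Insig1, Idi1, Fdps and Lss into pregnancy and the rises of Insig1 and Lss after birth.

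How many genes of all kinds rose or fell moved with the scaling of the arrays: 993 rose and 1501 fell into pregnancy as deposited, and 1284 rose and 1150 fell after quantile normalization. For postpartum against pregnancy the split was 439 and 160 as deposited, and 286 and 189 after quantile normalization. The synthesis enzymes kept 16 of 17 below 0 in the first comparison and 17 of 17 above 0 in the second under this scaling and under median centring, with medians of -0.70 and -0.81, then 0.94 and 1.03.

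**Figure D2:**
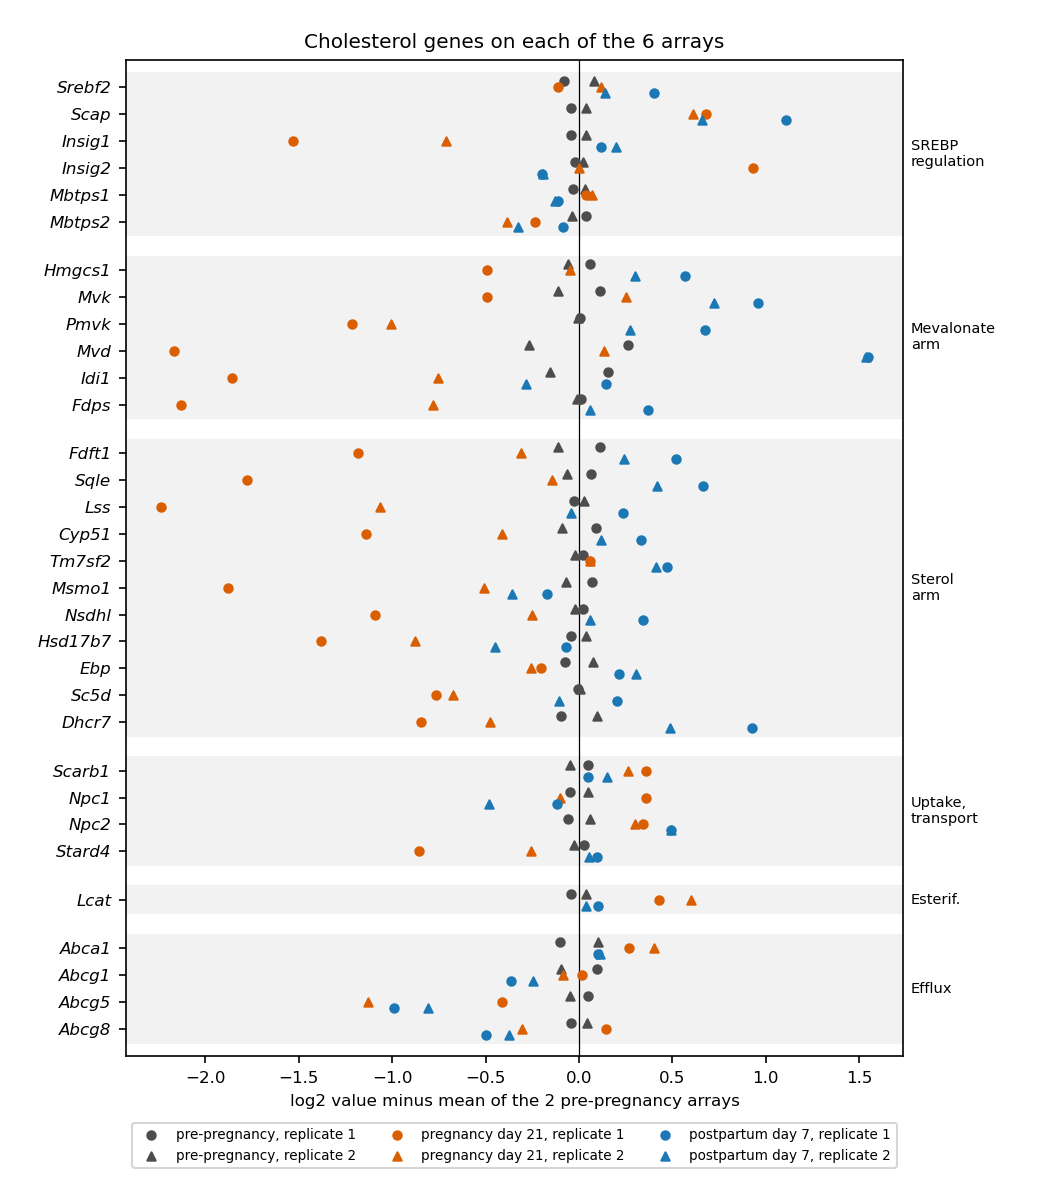
Each measured gene on each of the 6 arrays, as the log2 value minus the mean of the 2 pre-pregnancy arrays; colours are stages, circles replicate 1 and triangles replicate 2, and grey bands group the steps. Orange points of the mevalonate and sterol arms lie left of 0 for all but a few genes, mostly with the circle further left, and the blue points lie to the right of the orange ones.

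**Figure D3:**
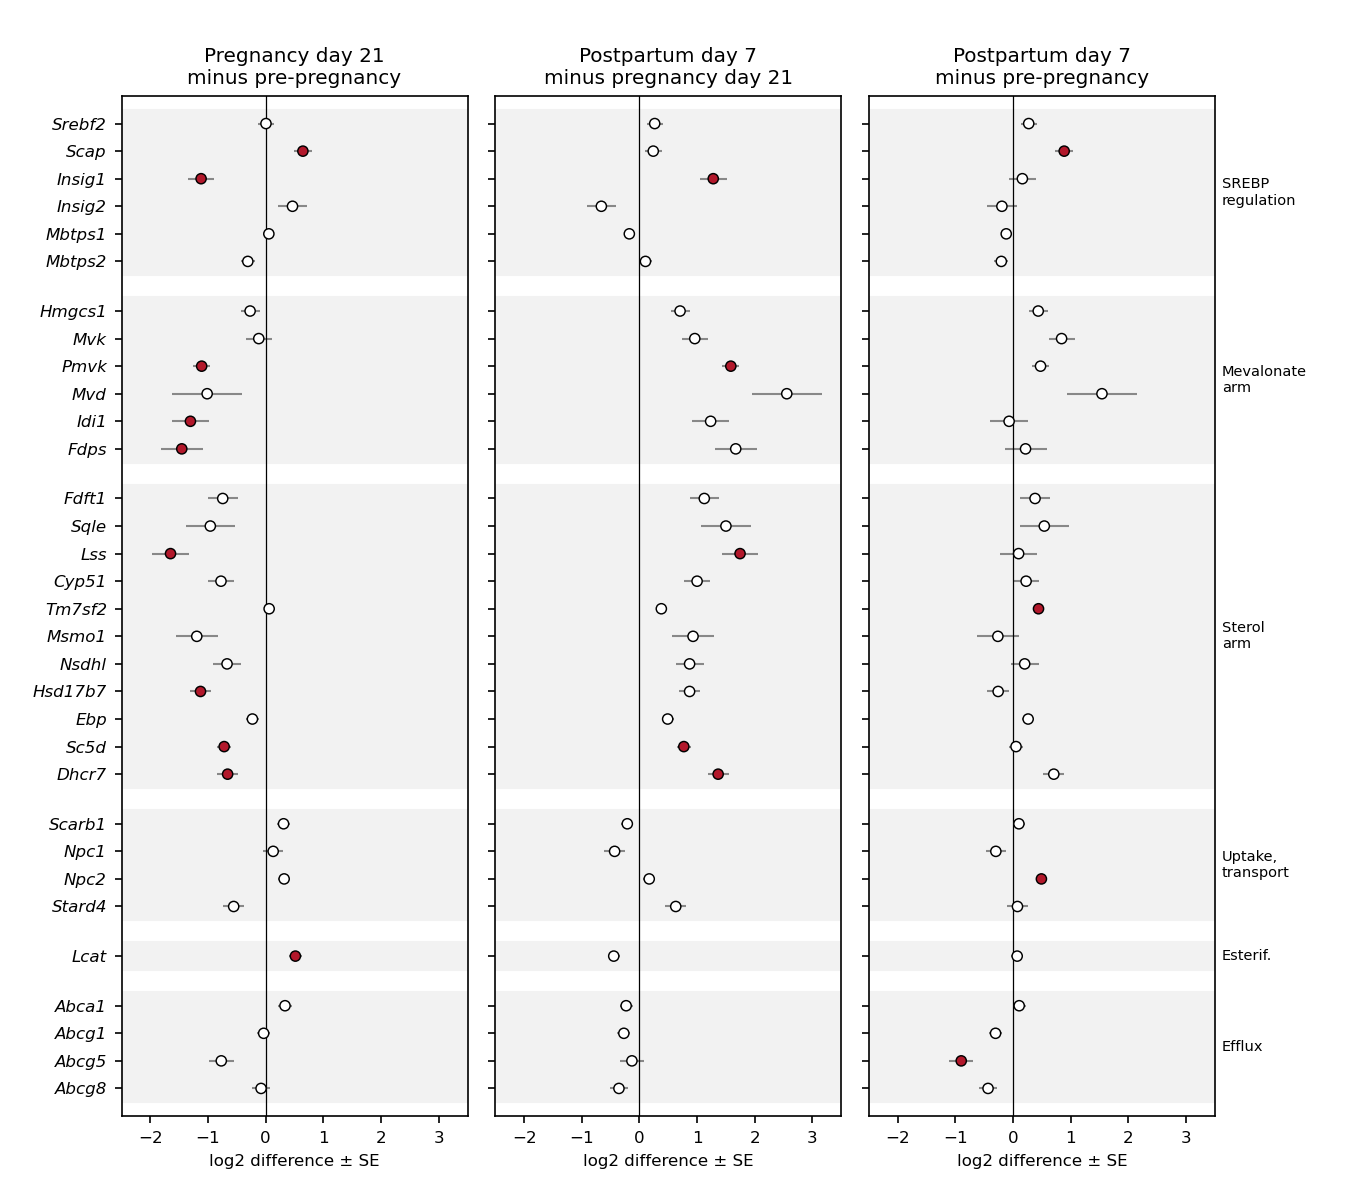
Log2 difference between stages with its SE for each measured gene in the 3 comparisons (n = 2 arrays a stage); filled red circles passed the adjusted threshold of 0.05 and open circles did not. All 17 synthesis enzymes lie above 0 in the middle panel, of which 4 passed.

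Promoters are shown for 6 of these genes because SREBP-2 acts through sterol regulatory elements together with NF-Y, which binds CCAAT boxes. Hmgcs1 opens the synthesis route, Srebf2 and Insig1 belong to its control, and Idi1, Lss and Hsd17b7 were among the enzymes that fell. Sequences are the 250 bases before the annotated start of RefSeq on GRCm38.p6, written 5′ to 3′ on the gene's strand: chr13:119690101-119690350 (plus) for Hmgcs1, chr15:82147019-82147268 (plus) for Srebf2, chr13:8885356-8885605 (plus) for Idi1, chr10:76531355-76531604 (plus) for Lss, chr1:169969206-169969455 (minus) for Hsd17b7 and chr5:28071162-28071411 (plus) for Insig1. Capitals mark CCAAT, which appears as ATTGG where it lies on the other strand, and the core TCACNCC of a sterol regulatory element, with 2 further capitals where the longer TCACNCCAC was met.
Hmgcs1: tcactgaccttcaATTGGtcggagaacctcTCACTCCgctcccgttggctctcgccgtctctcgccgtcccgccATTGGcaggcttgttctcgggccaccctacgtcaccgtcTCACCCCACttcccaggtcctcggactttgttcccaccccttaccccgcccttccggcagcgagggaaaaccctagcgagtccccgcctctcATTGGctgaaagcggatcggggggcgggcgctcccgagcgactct
Srebf2: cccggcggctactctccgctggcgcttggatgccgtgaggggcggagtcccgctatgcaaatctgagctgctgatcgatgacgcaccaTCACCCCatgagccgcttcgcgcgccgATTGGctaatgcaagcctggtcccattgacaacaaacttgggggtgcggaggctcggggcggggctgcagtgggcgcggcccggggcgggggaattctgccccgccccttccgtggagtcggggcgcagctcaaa
Idi1: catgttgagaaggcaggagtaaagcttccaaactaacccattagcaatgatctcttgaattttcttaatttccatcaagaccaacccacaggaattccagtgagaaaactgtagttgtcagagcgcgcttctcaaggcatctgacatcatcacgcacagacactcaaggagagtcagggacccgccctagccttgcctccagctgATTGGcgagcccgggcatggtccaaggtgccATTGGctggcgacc
Lss: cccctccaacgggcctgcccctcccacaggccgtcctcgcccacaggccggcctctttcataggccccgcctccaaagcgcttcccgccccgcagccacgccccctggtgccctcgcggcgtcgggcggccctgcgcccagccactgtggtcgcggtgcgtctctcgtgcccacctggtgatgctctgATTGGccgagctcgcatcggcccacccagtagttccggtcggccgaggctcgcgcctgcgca
Hsd17b7: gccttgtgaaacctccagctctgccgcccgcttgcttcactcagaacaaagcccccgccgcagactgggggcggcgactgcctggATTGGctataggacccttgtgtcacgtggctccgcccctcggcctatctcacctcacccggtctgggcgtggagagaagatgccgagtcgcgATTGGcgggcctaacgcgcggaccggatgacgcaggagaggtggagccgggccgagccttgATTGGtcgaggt
Insig1: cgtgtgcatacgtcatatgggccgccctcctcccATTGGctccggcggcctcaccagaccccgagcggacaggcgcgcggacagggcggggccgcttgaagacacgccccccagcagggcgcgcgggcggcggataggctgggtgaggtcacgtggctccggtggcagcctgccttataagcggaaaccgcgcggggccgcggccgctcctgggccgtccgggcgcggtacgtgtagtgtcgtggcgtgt

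The Hmgcs1 window held the longer element TCACCCCAC at -137 from the start, a second core TCACTCC at -220 and CCAAT boxes on the other strand at -237, -176 and -45. The Srebf2 window held a core TCACCCC at -162 and an ATTGG at -135. Hsd17b7 held ATTGG at -165, -73 and -12, and Idi1 at -45 and -14, while Lss and Insig1 held 1 each, at -62 and -216. None of these 4 held TCACNCC on either strand in this window, which says only that these letters are not there. Of the variants searched, Hsd17b7 held TCACCTCAC (a match to TCACCNCAC) at -117, and Insig1 held GTGGCGTG (CACNCCAC on the other strand) at -9.

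Over windows of 250 bases before to 50 after the start, 25 of the 32 measured genes were in the table, with 32 windows. Of the 17 windows of synthesis enzymes, belonging to 14 genes, 14 (82.4%) held CCAAT on either strand, beside 37.4% of the 18110 windows of all genes tested. GGGCGG, a GC box, was in 82.4% of these windows and 52.3% of all. TCACNCC was no more frequent in windows of the measured genes (15.6%) than in all (16.3%), and TCACNCCAC was met in Hmgcs1 alone among them (1.22% of all). CACGTG, the E-box, was in 7 of the 32 windows (21.9%, against 8.72%), those of Abca1, Dhcr7, Hsd17b7, Insig1, Sc5d and Scap. The Scap windows overlap and hold the same site, which is thus counted more than once. In all 10 motifs were searched on both strands, some of them nested in each other. These shares are descriptions, and no binding was measured.

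In the control of SREBP, Insig1 and Scap changed between stages, and the other 4 genes did not pass the test in any comparison. Srebf2, the gene of SREBP-2, read 7.99 and 8.15 before pregnancy, then 7.96 and 8.19 in pregnancy and 8.47 and 8.21 postpartum. Its pregnancy difference was 0.005, with a 95% interval from -0.31 to 0.32, and its postpartum arrays lay above the other 4 without passing the test (0.27 ± 0.14 SE against pregnancy, adjusted p = 0.318). A second, dimmer Srebf2 probe set gave -0.44 into pregnancy and 0.54 after it.

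Insig1, a target of SREBP that retains SCAP in the endoplasmic reticulum, read 12.69 and 12.77 before pregnancy, then 11.20 and 12.02 in pregnancy and 12.85 and 12.93 postpartum. Both pregnant arrays lay below the other 4. It fell 2.17-fold into pregnancy (-1.12 ± 0.23 SE, adjusted p = 0.0204) and rose 2.43-fold after it (1.28 ± 0.23 SE, adjusted p = 0.031). Its paralogue Insig2, known for a liver transcript that is not induced by SREBP, read 11.71 and 11.75, then 12.66 and 11.73, then 11.53 and 11.54. Pregnancy replicate 1 alone stood high, and the difference of 0.47 ± 0.25 SE (adjusted p = 0.255) was 0.93 without replicate 2 and 0.00 without replicate 1. Its other 2 probe sets gave 0.09 and 0.20.

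Scap, the escort that carries SREBP to the Golgi, read 10.98 and 11.06 before pregnancy, then 11.70 and 11.63 in pregnancy and 12.13 and 11.68 postpartum. It was higher in all 4 later arrays than in both earlier ones, and rose 1.56-fold into pregnancy (0.65 ± 0.15 SE, adjusted p = 0.0307) and 1.85-fold between pre-pregnancy and postpartum (0.89 ± 0.15 SE, adjusted p = 0.0167). A second, dim Scap probe set gave 0.18 and 0.63. The Golgi proteases that cut SREBP did not pass the test in any comparison: Mbtps1 differed by 0.055 and Mbtps2 by -0.31 into pregnancy.

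These calls were lost in some of the fits with 1 array left out. Over those fits the Scap pregnancy difference itself ran from 0.605 to 0.685. For the pregnancy differences the adjusted p was 0.183 for Scap and 0.129 for Insig1 without pre-pregnancy replicate 1, 0.105 and 0.104 without pre-pregnancy replicate 2, and 0.0929 and 0.0857 for Scap without pregnancy replicates 1 and 2. The Insig1 difference itself was -0.71 without pregnancy replicate 1 and -1.53 without replicate 2, called both times. Its rise after birth had adjusted p of 0.0869 without either pre-pregnancy array, and 0.127 and 0.15 without postpartum replicates 1 and 2. The Scap difference of postpartum against pre-pregnancy had 0.152 and 0.0814 without pre-pregnancy replicates 1 and 2, and 0.0544 without postpartum replicate 1.

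In the mevalonate arm 3 of 6 enzymes fell into pregnancy and 1 rose after it, where 8.25% of all genes fell and 2.41% rose. The median differences of this arm were -1.06 and 1.41. Pmvk, phosphomevalonate kinase, read 9.86 and 9.85 before pregnancy, then 8.64 and 8.85 in pregnancy and 10.53 and 10.13 postpartum. The 3 stages did not overlap. It fell 2.16-fold into pregnancy (-1.11 ± 0.15 SE, adjusted p = 0.00475) and rose 3.0-fold after it (1.59 ± 0.15 SE, adjusted p = 0.0032). The rise passed with any 1 of the 6 arrays left out (adjusted p from 0.00904 to 0.0227). The fall passed in 5 of these 6 fits, and had an adjusted p of 0.0619 without pre-pregnancy replicate 1.

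Idi1, the isomerase that interconverts the isoprenoid building blocks, read 12.76 and 12.45, then 10.75 and 11.85, then 12.75 and 12.32. It fell 2.47-fold (-1.31 ± 0.32 SE, adjusted p = 0.0361), and its postpartum arrays overlapped those before pregnancy. Fdps, farnesyl diphosphate synthase, where the route divides toward sterols and other isoprenoids, read 12.11 and 12.09, then 9.97 and 11.32, then 12.47 and 12.16. It fell 2.74-fold (-1.46 ± 0.36 SE, adjusted p = 0.037). For both genes pregnancy replicate 1 was the lower array by over 1, yet both pregnant arrays were below the other 4.

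Without pregnancy replicate 1 the Idi1 difference was -0.76 (adjusted p = 0.0701) and that of Fdps -0.78 (adjusted p = 0.0284), and without replicate 2 they were -1.86 and -2.13. Without pre-pregnancy replicates 1 and 2 the adjusted p was 0.224 and 0.108 for Idi1 and 0.196 and 0.141 for Fdps, which also had 0.0563 without either postpartum array. A second Fdps probe set, near background at a mean of 3.19, gave 0.12 into pregnancy.

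Mvd, the decarboxylase that makes the first isoprenoid, had the widest spread of the set: 8.74 and 8.21 before pregnancy, then 6.31 and 8.61 in pregnancy, and 10.02 and 10.01 postpartum. Only replicate 1 of pregnancy was below the pre-pregnancy arrays, and both postpartum arrays were above the other 4. Its differences of -1.02 ± 0.61 SE (adjusted p = 0.294) and 2.56 ± 0.61 SE (adjusted p = 0.0656) did not pass the test. With arrays left out in turn they ran from -2.17 to 0.14 and from 1.41 to 3.71. A second Mvd probe set gave -0.92 and 2.41.

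Hmgcs1, the synthase that makes HMG-CoA, read 13.21 and 13.09, then 12.66 and 13.10, then 13.72 and 13.45. Mvk, mevalonate kinase, read 8.08 and 7.86, then 7.48 and 8.22, then 8.93 and 8.69. In both genes the pregnant arrays overlapped the range before pregnancy, and both postpartum arrays were the highest of the 6. Neither passed in pregnancy against pre-pregnancy (adjusted p = 0.304 and 0.752), nor after birth, where the differences were 0.71 (adjusted p = 0.0632) and 0.96 (adjusted p = 0.0645). Against pre-pregnancy, postpartum Mvk differed by 0.84 (adjusted p = 0.0656) and Hmgcs1 by 0.44 (adjusted p = 0.161). Hmgcs1 probe sets disagreed in size: the fourth in brightness gave -1.02 into pregnancy and 0.85 after it.

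In the sterol arm 4 of 11 enzymes fell into pregnancy and 3 rose after it, where 8.25% of all genes fell and 2.41% rose. The median differences of this arm were -0.75 and 0.93. Lss, lanosterol synthase, which closes the sterol rings, read 10.10 and 10.15 before pregnancy, then 7.89 and 9.06 in pregnancy and 10.36 and 10.08 postpartum. Both pregnant arrays were below the other 4, and the postpartum arrays overlapped those before pregnancy. It fell 3.14-fold (-1.65 ± 0.32 SE, adjusted p = 0.0165) and rose 3.35-fold (1.75 ± 0.32 SE, adjusted p = 0.0318). A second Lss probe set gave -1.55 and 1.97, and a dimmer one -0.39 and 0.89.

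Hsd17b7, a ketosteroid reductase of the lanosterol-to-zymosterol steps, read 10.60 and 10.68, then 9.26 and 9.76, then 10.57 and 10.19. It fell 2.19-fold (-1.13 ± 0.19 SE, adjusted p = 0.00995), and its difference after birth, 0.87 ± 0.19 SE, missed the threshold (adjusted p = 0.0509). Postpartum values were all under those before pregnancy, by -0.26 on average. Its other 3 probe sets gave -1.43, -1.56 and, on the dimmest, -0.47 into pregnancy.

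Sc5d, the desaturase that makes the penultimate sterol, read 12.74 and 12.75, then 11.98 and 12.07, then 12.95 and 12.64. The pregnant arrays were close to each other and below the other 4. It fell 1.65-fold (-0.72 ± 0.13 SE, adjusted p = 0.0119) and rose 1.71-fold (0.77 ± 0.13 SE, adjusted p = 0.0227). Its dimmer probe sets gave larger differences, of -1.41 and -1.52. Dhcr7, the reductase that yields cholesterol itself, read 10.06 and 10.25, then 9.31 and 9.68, then 11.08 and 10.64. The 3 stages did not overlap, with the lowest values in pregnancy and the highest after birth. It fell 1.58-fold (-0.66 ± 0.18 SE, adjusted p = 0.0495) and rose 2.58-fold (1.37 ± 0.18 SE, adjusted p = 0.012), and its postpartum mean was above that before pregnancy by 0.71 (adjusted p = 0.0565).

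Leaving out pre-pregnancy replicates 1 and 2 raised the adjusted p of the falls to 0.123 and 0.091 for Lss, 0.0842 and 0.068 for Hsd17b7, 0.0938 and 0.0685 for Sc5d and 0.166 and 0.201 for Dhcr7. The Dhcr7 fall was also lost without pregnancy replicate 1 (a difference of -0.475) or replicate 2 (-0.845), and after quantile normalization. Reading every gene as the mean of its probe sets lost the Dhcr7 fall as well. Dhcr7 has only 1, which averaging cannot alter. The Lss fall was -1.07 without pregnancy replicate 1 and -2.24 without replicate 2, and its rise 1.16 and 2.33, each called. Of the rises, that of Lss had an adjusted p of 0.0907 without either pre-pregnancy array and of 0.156 and 0.119 without postpartum replicates 1 and 2. That of Sc5d had 0.0696 without either pre-pregnancy array, 0.0635 and 0.0621 without pregnancy replicates 1 and 2, and 0.111 without postpartum replicate 1. The Dhcr7 rise was lost without postpartum replicate 1 alone (adjusted p = 0.0612).

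Of the other 7 sterol enzymes, Sqle, the monooxygenase that makes squalene epoxide, read 11.12 and 10.99, then 9.28 and 10.91, then 11.72 and 11.47. Its pregnant replicate 2 lay just under the arrays before pregnancy, and the difference of -0.96 did not pass (adjusted p = 0.174). Fdft1, squalene synthase, read 12.19 and 11.97, then 10.90 and 11.77, then 12.60 and 12.32, a difference of -0.75 (adjusted p = 0.0946). Msmo1, a methylsterol oxidase, read 12.53 and 12.39, then 10.58 and 11.95, then 12.29 and 12.10, with -1.20 (adjusted p = 0.0682). In these 3 genes replicate 1 carried most of the pregnancy difference.

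Cyp51, the lanosterol demethylase, read 10.99 and 10.81, then 9.76 and 10.49, then 11.23 and 11.02. Its difference was -0.78 (adjusted p = 0.0551), and its second probe set fell by 1.60 on the log2 scale (adjusted p = 0.0252 among the 9012 genes with a second probe set). Nsdhl, a decarboxylating sterol dehydrogenase, differed by -0.67 (adjusted p = 0.109) and Ebp, the sterol isomerase, by -0.23 (adjusted p = 0.186).

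Tm7sf2, a sterol reductase of the endoplasmic reticulum and nuclear envelope, was the exception among the 17: 11.77 and 11.73 before pregnancy, then 11.81 and 11.81 in pregnancy, and 12.22 and 12.16 postpartum. Its pregnant arrays were slightly above those before pregnancy (0.06, adjusted p = 0.71), and the postpartum arrays were higher than all others. It was the only synthesis enzyme called in this fit between pre-pregnancy and postpartum (1.36-fold, 0.44 ± 0.10 SE, adjusted p = 0.0362). That rise was lost without pre-pregnancy replicates 1 and 2 (adjusted p = 0.179 and 0.141) and without postpartum replicates 1 and 2 (0.146 and 0.149). After quantile normalization Dhcr7 was called as well.

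Set against pre-pregnancy, the postpartum means of most enzymes were higher, by small differences that mostly did not pass. Of the 17, 1 rose and 0 fell, where 3.91% of all genes rose and 3.75% fell. The median difference was 0.26, beside 0.025 over all genes, and 14 of 17 means were higher. In 12 of 17 both postpartum arrays were above both arrays before pregnancy, which held for 30.0% of all genes. These counts are of the brightest probe sets. Of their other probe sets at least as bright as the median gene, 14 in all, 8 lay above 0 and 6 below. Over all 32 measured genes 3 rose and 1 fell.

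Among the genes of sterol uptake and movement inside the cell, 0 of 4 passed into pregnancy or after it. Of all genes, 5.46% rose and 8.25% fell into pregnancy, and 2.41% rose and 0.879% fell after it. Scarb1, the high-density lipoprotein receptor, read 10.82 and 10.72, then 11.13 and 11.03, then 10.82 and 10.92, so that both pregnant arrays were above the other 4 (0.31, adjusted p = 0.0912). Its other 2 probe sets gave 0.18 and 0.29. Npc1, the lysosomal membrane protein that exports cholesterol, read 9.80 and 9.90, then 10.21 and 9.75, then 9.73 and 9.37, and the pregnant arrays lay on either side of those before pregnancy.

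Npc2, the soluble lysosomal partner that hands cholesterol to the Npc1 protein, read 11.02 and 11.14, then 11.42 and 11.38, then 11.57 and 11.57. The 3 stages were apart and in rising order. It rose 1.40-fold between pre-pregnancy and postpartum (0.49 ± 0.10 SE, adjusted p = 0.0288), and its pregnancy difference was 0.32 (adjusted p = 0.0744). A second Npc2 probe set rose in both comparisons, by 0.52 (adjusted p = 0.0146) and 0.56 (adjusted p = 0.0149). The postpartum call on the brightest probe set was lost without pre-pregnancy replicates 1 and 2 (adjusted p = 0.198 and 0.0836) and without postpartum replicates 1 and 2 (0.108 and 0.15). Stard4, a sterol carrier of the cytosol and a known SREBP target, followed the synthesis enzymes in its arrays: 11.12 and 11.07, then 10.24 and 10.84, then 11.19 and 11.15. Its differences of -0.56 and 0.63 did not pass (adjusted p = 0.0804 and 0.107), and its other 2 probe sets gave -0.66 and -0.83.

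Lcat, the secreted enzyme that esterifies cholesterol on plasma lipoproteins, read 12.24 and 12.32 before pregnancy, then 12.71 and 12.88 in pregnancy and 12.38 and 12.32 postpartum. Both pregnant arrays were the highest of the 6. It rose 1.43-fold into pregnancy (0.52 ± 0.11 SE, adjusted p = 0.0217), and the difference after birth, -0.45, did not pass (adjusted p = 0.0705). The rise was lost without pre-pregnancy replicates 1 and 2 (adjusted p = 0.144 and 0.0767) and without pregnancy replicate 2 (0.085).

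Of the 4 efflux transporters, 0 passed into pregnancy or after it, and 1 fell between pre-pregnancy and postpartum, where 3.75% of all genes fell. Abcg5 and Abcg8 form the obligate dimer that secretes sterols into bile, and lie head to head: their promoter windows shared 209 bases. Abcg5 read 10.36 and 10.26 before pregnancy, then 9.90 and 9.18 in pregnancy and 9.32 and 9.50 postpartum. All 4 later arrays were below both earlier ones. It fell 1.87-fold between pre-pregnancy and postpartum (-0.90 ± 0.21 SE, adjusted p = 0.0445), and its pregnancy difference of -0.77 ± 0.21 SE lay just outside the threshold (adjusted p = 0.0505). The postpartum fall was lost without pre-pregnancy replicates 1 and 2 (adjusted p = 0.265 and 0.151) and without postpartum replicates 1 and 2 (0.166 and 0.148).

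Abcg8 read 8.89 and 8.98, then 9.08 and 8.63, then 8.44 and 8.56. Its pregnant arrays lay on either side of those before pregnancy, and its postpartum arrays were the lowest, with -0.44 against pre-pregnancy (adjusted p = 0.135). Abca1, which loads cholesterol onto apolipoprotein A-I, read 11.87 and 12.07, then 12.24 and 12.37, then 12.07 and 12.08. Both pregnant arrays were the highest, by 0.34 on average (adjusted p = 0.09), while a second Abca1 probe set of mean 6.01 gave -0.22 into pregnancy and fell between pre-pregnancy and postpartum, with -0.68 (adjusted p = 0.0143), so its probe sets disagreed. Abcg1, which exports cholesterol to mature high-density lipoprotein and is abundant in macrophages, read 7.54 and 7.35, then 7.46 and 7.36, then 7.08 and 7.20, and did not pass (-0.31 postpartum against pre-pregnancy, adjusted p = 0.157). Macrophage markers are given beside it: of 11, 2 fell into pregnancy, where 8.25% of all genes fell. Between pre-pregnancy and postpartum 1 rose and 1 fell, where 3.91% and 3.75% of all genes did. Into pregnancy Timd4 passed with any array left out, and Lyz2 in 1 of 6 such fits (adjusted p up to 0.215). The postpartum calls, Marco and Timd4, were lost without any 1 of the pre-pregnancy or postpartum arrays (adjusted p up to 0.204 and 0.116). The part of macrophages in the Abcg1 values was not tested.

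The neighbouring branches of the pathway were read from lists of related genes. Over all genes 5.46% rose and 8.25% fell into pregnancy, and 2.41% rose and 0.879% fell after birth. Between pre-pregnancy and postpartum 3.91% rose and 3.75% fell. Of 10 genes that carry farnesyl diphosphate to dolichol, ubiquinone and protein prenylation, 0 rose and 0 fell into pregnancy and after birth, and the median differences were -0.09 and 0.10. Rce1, a protease of prenylated proteins, rose between pre-pregnancy and postpartum (0.41, adjusted p = 0.0447; up to 0.223 with an array left out). Of 10 genes for endoplasmic reticulum proteins that act on SREBP transport or on sterol-controlled degradation, 1 rose and 1 fell into pregnancy. Rnf145, a ubiquitin ligase of that membrane, rose by 0.65 (adjusted p = 0.0194), and Sec24d, a coat protein of vesicles that leave it, fell by 0.73 on the log2 scale (adjusted p = 0.0387). These were lost without either pre-pregnancy array and without pregnancy replicate 2 for Rnf145 and replicate 1 for Sec24d, with adjusted p up to 0.10 and 0.174. Sec23a, of the same coat, fell by 0.48 between pre-pregnancy and postpartum (adjusted p = 0.041; up to 0.251 with an array left out).

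The genes listed under fatty acid synthesis and the related factor SREBP-1 were also lower in pregnancy and higher after birth. Which SREBP acts on each of these genes was not tested. Of 11, 0 rose and 6 fell into pregnancy, where 5.46% of all genes rose and 8.25% fell. After birth 8 rose and 0 fell, where 2.41% of all genes rose and 0.879% fell. The median differences were -1.02 and 1.70. Srebf1, the gene of SREBP-1, read 11.89 and 11.98, then 10.68 and 11.37, then 11.89 and 12.07, so that both pregnant arrays were below the other 4. It fell into pregnancy by 0.91 on the log2 scale (adjusted p = 0.0275; 0.147 at most with an array left out), and the difference between its change and that of Srebf2 was not tested. Aacs, which activates acetoacetate for lipid synthesis, read 10.53 on both arrays before pregnancy, then 7.07 and 8.20 in pregnancy and 10.24 and 10.46 postpartum. Both of its changes, -2.90 and 2.72, passed with any array left out (adjusted p at most 0.0392 and 0.0455).

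Elovl6, a fatty acid elongase, read 12.04 and 11.09, then 9.02 and 9.96, then 12.89 and 12.04, and fell (-2.08, adjusted p = 0.0181) and rose (2.98, adjusted p = 0.0133); without postpartum replicate 1 the rise was lost (up to 0.0726), as was the fall without pre-pregnancy or pregnancy replicate 1 (up to 0.145). Fasn, fatty acid synthase, read 12.09 and 12.11, then 10.69 and 11.68, then 13.46 and 13.11. It rose after birth (2.10, adjusted p = 0.0128) and stood above its starting level (1.19, adjusted p = 0.0464), both lost without postpartum replicate 1 or either pre-pregnancy array (adjusted p up to 0.0769 and 0.258). The count that fell into pregnancy was 1 and 3 without pre-pregnancy replicates 1 and 2, and 5 and 8 without pregnancy replicates 1 and 2. The count that rose after birth was 2 without postpartum replicate 1 and 5 without either pre-pregnancy array.

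The pregnant arrays stood apart in this list too, in the same order: its median deviation from the mean of 6 arrays was -1.23 on replicate 1 and -0.51 on replicate 2. For the mevalonate arm these were -1.20 and -0.20, and for the sterol arm -0.93 and -0.23. Cyp7a1, which opens bile acid synthesis and so consumes cholesterol, read 11.18 and 11.36, then 9.45 and 12.39, then 12.02 and 11.65, with the pregnant arrays on either side of all the others. Its stage differences did not pass (adjusted p = 0.786 into pregnancy).

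**Figure D4:**
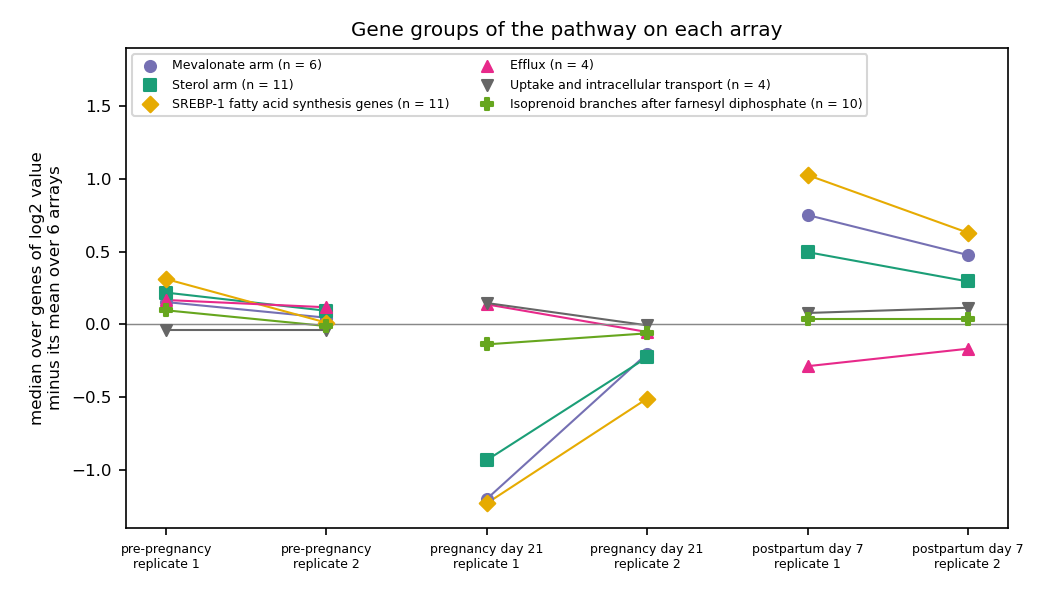
Median over the genes of each group of the log2 value minus that gene's mean over the 6 arrays, for 4 steps of the cholesterol route and 2 related lists; lines join the 2 replicates of a stage. The mevalonate arm, the sterol arm and the SREBP-1 list are lowest on pregnancy replicate 1 (-1.20, -0.93 and -1.23) and highest postpartum, while uptake and efflux stay within 0.3 of 0.

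Genes of the circadian clock follow the hour of the day in liver. Over 17 of them the median distance between the 2 arrays was 0.37 in pregnancy, 0.11 before it and 0.29 after it, with 8, 2 and 0 genes over 0.5 apart. Replicate 1 of pregnancy was the lower array in 10 and the higher in 6, and the list's median deviations on the pregnant arrays were -0.037 and 0.13. Among the widest distances, Arntl read 7.62 on replicate 1 and 5.66 on replicate 2, Dbp 10.05 and 11.55, Per2 6.78 and 8.02, and Per3 7.44 and 8.65. Of 17 clock genes, 1 rose (Nr1d1, 1.43, adjusted p = 0.012) and 1 fell (Cry1, -1.45, adjusted p = 0.0047) into pregnancy. Beside this, 5.46% of all genes rose and 8.25% fell. Nr1d1 passed with any array left out, and Cry1 had 0.067 without pre-pregnancy replicate 1. Postpartum against pre-pregnancy gave 1.40 (adjusted p = 0.0197) and -1.49 (adjusted p = 0.0078). The Nr1d1 call there was lost without either postpartum array and without pre-pregnancy replicate 1 (adjusted p up to 0.109), and that of Cry1 without pre-pregnancy replicate 1 (0.10). The part of the hour of collection in the cholesterol genes was not tested.

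The tissue label was checked against markers. For the counts below, 5.46% of all genes rose and 8.25% fell into pregnancy, and 0.879% fell after birth. Alb read 14.87 to 14.98 over the 6 arrays, and the summed level of 8 hepatocyte markers, on the log2 scale, was 17.1 on every array. A summed level adds the genes of a list before the log is taken, so it mostly follows the brightest of them. Single hepatocyte markers differed by -0.375 to 0.395 into pregnancy and by -0.44 to 0.455 after birth. Asgr1 alone of these rose into pregnancy, in 1 of 6 fits with an array left out (adjusted p up to 0.193). Of 8 endothelial markers 3 fell into pregnancy (summed level 12.56 and 12.21 before, 11.99 and 11.98 in pregnancy, 11.97 and 11.88 after). That count was 0 and 1 without pre-pregnancy replicates 1 and 2, and 2 and 0 without pregnancy replicates 1 and 2. Of 7 stellate markers 1 fell, Lrat, a call that either pre-pregnancy array ended when left out (adjusted p up to 0.164). Macrophage markers summed to 13.33 and 13.39 before pregnancy, then 13.27 and 12.96 in pregnancy and 13.34 and 13.43 after. Of 5 neutrophil markers 2 rose into pregnancy (summed level 7.80 and 7.96, then 8.36 and 8.42, then 7.99 and 7.99, each marker below it). That count was 0 without pre-pregnancy replicate 1, and 1 without its replicate 2 or either pregnant array. S100a9 fell after birth, a call lost with any array left out (adjusted p up to 0.191). Of 4 bile duct markers 0 passed, with summed levels of 6.80 to 7.06 on 5 arrays and 8.01 on postpartum replicate 1, each marker below them.

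Of 2 pancreatic acinar markers, Cela1, an elastase, read 10.37 and 10.46, then 9.14 and 9.33, then 9.42 and 9.32, while Cpa1, a carboxypeptidase, read 3.91 to 4.42 on all arrays, near background. Cela1 fell into pregnancy (-1.18, called with any array left out, adjusted p at most 0.0253) and was lower postpartum than before pregnancy (-1.05, lost without pre-pregnancy replicate 1, adjusted p = 0.0549). In all, 3 placental markers read 3.17 to 3.94 on every array, near background. The part of these cells in the results above was not tested.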

How the data were processed

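Total RNA of 6 mouse livers was labelled with the GeneChip 3' IVT Express kit, as the labels' protocols state. The authors deposited log2 values for 45101 probe sets on each of 6 arrays, and the submitters' processing notes name RMA and Affymetrix Power Tools without version or role. The log2 base is inferred from the values (2.69 to 15.05). RMA usually equalises the distributions of arrays and compresses differences near background. Array medians were 5.09 to 5.15, and the precision is limited by the number of arrays.

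Gene names came from the platform annotation, in which 34958 probe sets had 1 symbol, 932 several and 9211 none; only the first were used. Of these, 34754 matched the current gene table by ID, and 0 symbols changed. The probe set with the highest mean stood for each of 18194 genes; 12 of the 32 measured genes had 1 probe set and 20 had several.

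The test was limma 3.58.1 in R 4.3.3 (a mean per stage, then eBayes) over all 6 arrays, with 3 residual and 4.80 prior degrees of freedom, two-sided, Benjamini-Hochberg over all genes, threshold 0.05. The fit was tested on simulated data with 200 genes changed. The set of 35 genes, the related lists and the tests were chosen with earlier results of these data known. Named with the value of every array were the genes of the set called in at least 1 comparison; the rest of the set is accounted for, and further members were given every value after they had been seen. Of other lists, up to 4 called genes a comparison were named by size of difference, with Srebf1, Nr1h3 and Cyp7a1 whatever their values; 4 uncalled clock genes were chosen after their values were seen. Replicate numbers were not treated as pairs. Promoter windows are from RefSeq on GRCm38.p6. Alternatives tried were a block for the replicate number, dim genes left out (under the 40th percentile), quantile normalization, median centring, trended and robust variance, other probe sets, only 2 groups, other thresholds, and each array left out, which leaves a stage with 1 array that is assumed to vary like the rest.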

Additional observations from a re-analysis of the deposited data

How the results depend on the processing

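With 2 arrays a stage, most calls were lost in some fits with 1 array left out. Such a fit leaves a stage with 1 array and has fewer degrees of freedom, so a lost call need not mean a changed difference. With each array left out in turn, the genes called ran from 323 to 1977 for pregnancy against pre-pregnancy (2494 in full), from 115 to 528 for postpartum against pregnancy (599) and from 73 to 1582 for postpartum against pre-pregnancy (1393). Of the 32 measured cholesterol genes 0 to 15, 1 to 17 and 0 to 8 were called (10, 5 and 4), and their median differences ran from -0.49 to -0.25, from 0.42 to 0.87 and from 0.085 to 0.21. A threshold of 0.1 gave 4066, 1337 and 2489 genes, and 18, 16 and 7 of the cholesterol genes. A 2-fold minimum gave 429, 180 and 262 genes, and 6 cholesterol genes into pregnancy and 0 between pre-pregnancy and postpartum. The second brightest probe set, for the 9012 genes that have one, gave 1226, 208 and 775 genes, and 5 and 3 cholesterol genes in the first 2 comparisons; Fdps turned to 0.12 there, on a probe set near background. Fitting only the 2 groups compared gave 203 genes and 2 cholesterol genes for postpartum against pregnancy, and 8 cholesterol genes between pre-pregnancy and postpartum. Median centring gave 8 cholesterol genes after birth. Beyond the array left out or the fewer genes and arrays that an alternative uses by construction, the cause was not tested. A trended and robust variance kept the counts within 1.5 times, but lost Insig1, Idi1, Fdps and Lss and gained Abca1, Abcg5 and Npc2 in pregnancy, and after birth lost Insig1 and Lss and gained Ebp, Hsd17b7, Lcat and Tm7sf2. In pregnancy, quantile normalization lost Dhcr7 and gained Npc2 and Scarb1. The mean of all probe sets lost Idi1, Fdps and Dhcr7, the last a gene of 1 probe set, and gained Cyp51.

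The replicate number as a block gave 2612, 574 and 1568 genes and 10, 5 and 4 cholesterol genes; Dhcr7 was lost (adjusted p = 0.0611) and Abcg5 gained in pregnancy. Deviations of same-numbered arrays correlated at 0.029, 0.11 and -0.027 across genes. The labels do not say what the numbers mean. A correlation over all genes cannot exclude something that same-numbered samples share and that acts on some genes.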

Other observations

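Sterol genes outside the named set gave a few further values. Of 6 liver X receptor genes and targets, Pltp, the phospholipid transfer protein of plasma lipoproteins, rose at each stage: 9.13 and 9.05 before pregnancy, then 9.60 and 9.57 in pregnancy and 10.40 and 10.64 postpartum. The stages did not overlap, with 0.50 into pregnancy (adjusted p = 0.0301), 0.94 after it (adjusted p = 0.009) and 1.43 between pre-pregnancy and postpartum (adjusted p = 0.0017). The last passed with any array left out (adjusted p at most 0.0347). The first had an adjusted p of up to 0.133, and was lost without any 1 of the pre-pregnancy or pregnant arrays, and the second was lost without postpartum replicate 2 (0.0528). Nr1h3, the liver X receptor itself, read 9.49 and 9.32, then 9.38 and 9.25, then 9.28 and 9.31, and did not pass in any comparison. Apart from Pltp, the other 5 genes of this list were not called in any comparison. Of all genes, 5.46% rose into pregnancy, 2.41% after it and 3.91% between pre-pregnancy and postpartum.

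Of 14 genes of lysosomal and membrane sterol transport, 0 passed into pregnancy or after birth. Between pre-pregnancy and postpartum 1 of the 14 fell, where 3.75% of all genes fell. Scp2, a sterol and fatty acid carrier of peroxisomes, fell by 0.56 on the log2 scale between pre-pregnancy and postpartum (adjusted p = 0.0233; up to 0.171 with an array left out), from 13.98 and 13.91 to 13.38 and 13.39.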
